A study of Mus musculus with 24 samples.

Results

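The 35 barcodes described here are members of 15 groups whose barcodes kept a nearly constant ratio to each other in every sorted population of their mouse. They were chosen by their shares of reads. In each mouse a barcode was a candidate if it held at least 0.01% of reads in all 8 populations and at least 0.1% in at least 1. A candidate became a member if the log2 ratio of its share to that of another candidate had a standard deviation (SD, n - 1) under 0.3 over the 8 populations. This gave 16 members of 67 candidates in mouse 1, 11 of 50 in mouse 2 and 8 of 40 in mouse 3, out of 327974 distinct barcode sequences in all files. The rule fixes how steady a pair is, so steadiness is given as a description with no test. The mean level of the ratio, the sequences and the levels in the other mice were not used by the rule.

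The samples were genomic DNA from 3 C57BL/6J recipient mice, with 1 sample per population and mouse, 24 in all. Haematopoietic stem cells from C57BL/6 bone marrow were cultured, infected with the barcoding lentivirus pBC008 after 5 days and sorted 4 days later as GFP+ cells of the LSK phenotype. They were injected with unbarcoded CD45.2+ rescue cells into male CD45.2 recipients aged 5 weeks that had been irradiated with 9 Gy. After 2 months monocytes, neutrophils, B cells and T cells were taken from blood, Ccr2hi and Ccr2lo macrophages from the heart, and M1 and M2 macrophages from the kidney. All groups thus share the irradiation, the culture and the virus, and there was no untreated group. The files hold no gene expression, so the labelled cell types could not be checked against markers here. Samples held 6808221 to 15745444 reads, and 0.01% of a sample was 681 to 1575 reads. Copies were amplified by PCR and carry no molecular identifiers. Shares therefore refer to reads and not to cells, and counting error is only part of their error.

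A lentivirus inserts a DNA copy into the chromosome of the cell it infects, and every descendant of that cell inherits the copy. A barcode carried by the virus therefore marks a clone. A cell infected by more than 1 virus passes on several barcodes together, and their copies then stand in a fixed ratio in all of its progeny, whatever lineage these enter. A count of barcodes then exceeds the count of founder cells. Whether the barcodes of a group entered 1 cell was not tested, and the joined counts below state what the counts become if each group is taken as 1 unit.

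The sequences show that members of a group were not near-copies of each other. Each barcode is a synthetic sequence of 52 bases with no position in a genome, printed 5′ to 3′ as deposited. Groups carry letters, A to H in mouse 1, J, K, L and N in mouse 2 and P, Q and R in mouse 3, in order of their summed mean share. Barcodes of a group are named x, y, z and w in order of mean share. Capitals mark the positions at which all printed barcodes of that set have the same base. Shown are the largest group of each mouse (of several of equal size, the most abundant), the pair with the lowest SD of each mouse, the most abundant pair of mouse 2, the pair with the fewest differing bases, and the pairs just inside and just outside the limit. The first is the most abundant group of mouse 1, with 21 differing bases.
A-x: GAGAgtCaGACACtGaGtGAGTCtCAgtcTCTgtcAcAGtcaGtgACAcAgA
A-y: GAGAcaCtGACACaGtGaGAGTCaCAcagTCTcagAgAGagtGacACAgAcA
The steadiest pair of mouse 1 differed at 26 bases.
C-x: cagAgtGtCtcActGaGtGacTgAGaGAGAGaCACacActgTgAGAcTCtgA
C-y: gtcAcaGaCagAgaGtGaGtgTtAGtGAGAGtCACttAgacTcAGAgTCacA
The most abundant pair of mouse 2 also differed at 26 bases.
J-x: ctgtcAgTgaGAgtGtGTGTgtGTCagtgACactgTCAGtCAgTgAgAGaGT
J-y: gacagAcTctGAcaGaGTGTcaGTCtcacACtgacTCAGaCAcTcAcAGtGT
The largest group of all, in mouse 2, had 4 barcodes that shared the same base at only 4 positions. Its first 2 barcodes are the steadiest pair of that mouse.
K-x: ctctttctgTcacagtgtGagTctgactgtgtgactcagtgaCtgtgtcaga
K-y: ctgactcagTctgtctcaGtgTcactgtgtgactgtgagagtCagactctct
K-z: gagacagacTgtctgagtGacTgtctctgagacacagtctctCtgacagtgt
K-w: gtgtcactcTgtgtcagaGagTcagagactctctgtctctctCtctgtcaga
The most abundant group of mouse 3 had 3 barcodes with 11 shared positions. P-x and P-z are the most abundant pair under the limit in that mouse.
P-x: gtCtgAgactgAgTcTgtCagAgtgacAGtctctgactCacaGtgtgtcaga
P-y: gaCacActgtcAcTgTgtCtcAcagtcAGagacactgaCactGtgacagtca
P-z: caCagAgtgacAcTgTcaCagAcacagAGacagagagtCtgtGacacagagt
The steadiest pair of mouse 3, and of all mice, differed at 24 bases.
Q-x: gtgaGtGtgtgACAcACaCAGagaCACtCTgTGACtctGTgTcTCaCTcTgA
Q-y: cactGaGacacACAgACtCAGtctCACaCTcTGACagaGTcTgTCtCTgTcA
The most similar pair under the limit still differed at 19 bases.
H-x: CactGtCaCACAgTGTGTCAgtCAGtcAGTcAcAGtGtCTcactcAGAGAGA
H-y: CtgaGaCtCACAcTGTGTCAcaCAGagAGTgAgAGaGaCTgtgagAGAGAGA
The pair just inside the limit was in mouse 1.
G-x: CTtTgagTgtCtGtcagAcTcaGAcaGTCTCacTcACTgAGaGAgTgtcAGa
G-y: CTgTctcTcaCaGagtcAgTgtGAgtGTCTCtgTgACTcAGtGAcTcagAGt
The pair just outside the limit was in mouse 2, at ranks 24 and 28 of its candidates by mean share.
rank 24: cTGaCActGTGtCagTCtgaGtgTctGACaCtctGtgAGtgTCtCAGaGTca
rank 28: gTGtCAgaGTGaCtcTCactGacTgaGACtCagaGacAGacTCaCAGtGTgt

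Over the 23 pairs under the limit the barcodes differed at 19 to 32 of 52 bases, with a median of 24. Over all 4216 pairs of candidates of the same mouse they differed at 14 to 38 bases, with a median of 26. Counting insertions and deletions as well, the edit distance of the 23 pairs was 17 to 24. No pair was thus within a few sequencing or PCR errors, and neither was any other pair of candidates. Merging barcodes 1 mismatch from a more abundant one could therefore not fuse the 2 barcodes of a pair. It left all 23 pairs in place and added 1. Most candidates alternate strong bases (G, C) with weak ones (A, T), an order that was kept by 30 of 35 members and 141 of 157 candidates. C-y, G-x, K-x, R-y and R-z departed from it. In 17 of the 23 pairs both barcodes had the same content of G and C, and the largest difference was 3.85 percentage points. A barcode of 52 bases that keeps the alternating order has 50% G and C. Equal content was thus fixed for any 2 such barcodes and is no trait of the pairs.

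Steady pairs were rare within a mouse and rarer between mice. In mouse 1, 8 of 2211 candidate pairs were under the limit (0.362%), in mouse 2 it was 9 of 1225 (0.735%) and in mouse 3 it was 6 of 780 (0.769%). Over the 3 mice this was 23 of 4216 pairs, or 0.546%. Barcodes of different mice, compared over the same 8 population names, have no shared sample. Of 8030 such pairs 2 were under the limit (0.0249%), and the lowest SD among them was 0.247. A difference in composition between mice adds to the SD of such a pair. With each population of a mouse centred on the median of its candidates, a version added once values were known, 3 of 8030 pairs were under the limit (0.0374%). The median SD of all candidate pairs was 2.23 within mice and 2.27 between mice, so that a typical pair changed its ratio severalfold from population to population.

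The difference was widest in the steadiest pairs. Within mice 4 pairs had an SD under 0.1 and 10 an SD from 0.1 to 0.2, and between mice 0 of 8030 pairs had either. From 0.2 to 0.3 there were 9 pairs within mice and 2 between mice, or 0.213% and 0.0249%. From 0.3 to 0.4 the shares were 0.427% within and 0.212% between mice. From 0.4 to 0.5 they were closer, 0.546% within and 0.436% between mice. With medians centred, the shares between mice were 0.112% from 0.3 to 0.4 and 0.274% from 0.4 to 0.5. Some excess within mice was thus seen above the limit as well. The SD expected from counting reads alone was 0.00454 to 0.0334 for the 23 pairs. Each observed SD was 7.73 to 61.3 times that value, so the counting of reads was the smaller part of the spread. The number of cells sorted was not used here, and its part in the spread was not tested.

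The values near the limit form no gap. The 3 pairs just inside had an SD of 0.288 (L-x with L-y), 0.291 (B-x with B-y) and 0.298 (G-x with G-y). The 3 just outside had 0.30001, 0.305 and 0.307. The first of these, ranks 24 and 28 of mouse 2, had an SD of 0.0843 over the other 7 populations and departed in renal M1 macrophages, where the barcodes held 0.0402% and 0.0172%. The second joined ranks 12 and 18 of mouse 1. The third joined P-y to a barcode at a level 20.3-fold lower, at rank 38 of mouse 3.

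Of the 15 groups 11 were pairs, 3 were triplets and 1 had 4 barcodes. All 8 groups of mouse 1 were pairs. Mouse 2 had the triplet J, the group of 4 and 2 pairs, and mouse 3 had the triplets P and R and 1 pair. Members were more frequent among abundant candidates. With the candidates of each mouse cut into 3 bins of nearly equal size by mean share, they made up 19 of 54 candidates in the highest bins, 9 of 52 in the middle bins and 7 of 51 in the lowest bins. The median SD to the nearest other candidate was 0.314 to 0.459 in the highest bins of the 3 mice and 0.553 to 0.572 in the lowest. The members' mean shares ran from 0.174% (H-y) to 5.99% (P-x), with a median of 1.09%.

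The profiles that pairs shared across populations were of different kinds. Each member changed its share at least 3.47-fold over the 8 populations, with a median of 13.1-fold and at most 129-fold (L-x). Partners followed each other through these changes.

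Group A was a myeloid-rich pair. Monocytes and neutrophils are short-lived blood cells of the myeloid lineage. A-x held 8.96% of monocyte, 10.6% of neutrophil, 4.30% of B cell, 0.362% of T cell, 0.823% of Ccr2hi, 0.507% of Ccr2lo, 8.74% of M1 and 1.27% of M2 macrophage reads. A-y held 8.11%, 9.49%, 4.79%, 0.403%, 0.791%, 0.527%, 9.61% and 1.11% in the same order. Both were highest in monocytes, neutrophils and M1 macrophages and lowest in T cells, and A-x was above A-y in 4 of the 8 populations. The ratio had a geometric mean of 1.004 and ran from 0.898 in B cells to 1.14 in M2 macrophages (SD of log2 0.149).

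Group C was also rich in myeloid cells but low in B cells. C-x held 4.98% of monocyte, 5.27% of neutrophil, 0.534% of B cell, 0.582% of T cell, 2.18% of Ccr2hi, 1.74% of Ccr2lo, 6.04% of M1 and 2.52% of M2 reads. C-y held 4.76%, 4.95%, 0.452%, 0.518%, 2.12%, 1.78%, 5.92% and 2.38%. Their ratio had a geometric mean of 1.06 and an SD of 0.0863, and it departed farthest in B cells, at 1.18.

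Group B had a ratio away from 1. B-x held 8.54% of monocyte, 8.39% of neutrophil, 3.34% of B cell, 1.86% of T cell, 1.39% of Ccr2hi, 0.992% of Ccr2lo, 7.02% of M1 and 2.22% of M2 reads. B-y held 5.54%, 4.89%, 1.86%, 1.11%, 0.670%, 0.433%, 4.86% and 0.855%. B-x was the higher in every population, by 1.44-fold in M1 to 2.59-fold in M2 macrophages, with a geometric mean of 1.86.

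The other groups of mouse 1 covered further profiles. Group D was highest in B cells (2.16% and 1.68%) and cardiac Ccr2hi macrophages (1.85% and 1.45%) and lowest in neutrophils (0.221% and 0.170%), at a ratio of 1.32 (SD 0.120). Group E was the most even of the mouse, with a range of 4.03-fold for E-x and 3.90-fold for E-y and a ratio of 1.23. Group F was highest in B cells, at 1.90% and 1.85%, with a ratio of 1.08. Groups G and H were highest in T cells, G at 2.43% and 1.61% and H at 0.822% and 0.824%. In neutrophils H-x held 0.0104% and H-y 0.010003%, at the edge of the rule.

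Group J was a triplet of equal levels. J-x held 3.76% of monocyte, 4.47% of neutrophil, 5.77% of B cell, 1.31% of T cell, 1.05% of Ccr2hi, 0.981% of Ccr2lo, 3.45% of M1 and 1.05% of M2 reads. J-y held 4.12%, 3.48%, 4.74%, 1.15%, 1.07%, 0.968%, 3.51% and 1.01%. J-z held 3.69%, 3.60%, 4.96%, 1.18%, 1.08%, 1.13%, 3.18% and 1.02%. All 3 were highest in B cells and near 1% in T cells and in the cardiac and M2 macrophages. Each of the 3 ratios had a geometric mean between 1.01 and 1.07 and an SD between 0.120 and 0.169.

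Group K joined barcodes of unequal level. K-x held 3.33% of monocyte, 3.27% of neutrophil, 1.43% of B cell, 3.21% of T cell, 0.973% of Ccr2hi, 0.962% of Ccr2lo, 2.85% of M1 and 1.13% of M2 reads. K-y held 3.19%, 3.49%, 1.36%, 2.89%, 1.04%, 0.908%, 2.68% and 1.08%, at a ratio of 1.03 to K-x (SD 0.0882). K-z held 0.663%, 0.783%, 0.295%, 0.538%, 0.202%, 0.142%, 0.479% and 0.241%. It was 5.22-fold below K-x and 5.07-fold below K-y, with SDs of 0.230 and 0.179. K-w held 0.594%, 0.703%, 0.274%, 0.424%, 0.170%, 0.0828%, 0.497% and 0.187%. K-w was linked to K-z alone, at a ratio of 1.20 (SD 0.249). Its SDs to K-x and K-y were 0.412 and 0.376, over the limit, and the departure was in Ccr2lo macrophages. There K-x was 11.6-fold above K-w, against 5.73-fold on average over the other 7 populations.

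The 2 remaining groups of mouse 2 were low in monocytes, neutrophils and M1 macrophages. L-x and L-y were highest in T cells (3.30% and 3.08%) and next in B cells (1.12% and 1.10%), and lowest in M1 macrophages (0.0256% and 0.0292%). N-x and N-y were highest in B cells (1.33% and 1.17%) and next in M2 macrophages (0.566% and 0.554%), with T cells at 0.0239% and 0.0202%. L and N thus parted in T cells, and partners stayed together in both.

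Group P had 1 abundant and 2 lesser barcodes. P-x held 9.65% of monocyte, 10.0% of neutrophil, 8.25% of B cell, 2.46% of T cell, 2.85% of Ccr2hi, 1.51% of Ccr2lo, 10.5% of M1 and 2.69% of M2 reads. P-y held 3.61%, 2.53%, 2.07%, 0.721%, 1.13%, 0.687%, 3.79% and 0.824%. P-z held 2.24%, 1.64%, 1.47%, 0.450%, 0.690%, 0.397%, 2.23% and 0.552%. P-y and P-z kept a ratio of 1.59 with an SD of 0.0974. P-x was 4.82-fold above P-z (SD 0.238) and departed farthest in neutrophils, at 6.13-fold. P-x and P-y themselves had an SD of 0.312, so the group held together through P-z.

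Group Q was the steadiest pair, and it was rich in T cells. Q-x held 0.935% of monocyte, 0.974% of neutrophil, 2.40% of B cell, 15.3% of T cell, 2.00% of Ccr2hi, 1.40% of Ccr2lo, 0.385% of M1 and 1.32% of M2 reads. Q-y held 0.911%, 1.02%, 2.32%, 14.8%, 2.06%, 1.32%, 0.361% and 1.31%. Both spanned about 40-fold, 39.7 and 41.1, and yet their ratio stayed between 0.951 and 1.06, with an SD of 0.0571.

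Group R was myeloid-rich and low in lymphoid cells. R-x held 2.80% of monocyte, 3.65% of neutrophil, 0.238% of B cell, 0.349% of T cell, 0.703% of Ccr2hi, 0.553% of Ccr2lo, 2.93% of M1 and 0.548% of M2 reads. R-y held 0.805%, 0.996%, 0.0510%, 0.0733%, 0.233%, 0.164%, 0.694% and 0.133%. R-z held 0.753%, 0.981%, 0.0562%, 0.0735%, 0.173%, 0.149%, 0.661% and 0.114%. R-y and R-z were level, at a ratio of 1.07, and R-x was 3.87-fold and 4.16-fold above them.

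Among the 23 pairs under the limit the level ratios, which the rule did not use, left a gap between 1.86 and 3.87. P-x and P-y, joined in group P although over the limit (SD 0.312), had a ratio of 3.04, inside that gap. In 14 of 23 pairs the geometric mean of the ratio of the higher to the lower barcode was 1.004 to 1.23. In 4 pairs it was 1.32 to 1.86, and in 5 pairs it was 3.87 to 5.22. The 5 unequal pairs came from groups K, P and R alone and share barcodes, so they are not independent. Equal content of G and C was found in 2 of these 5 pairs. The rest hold K-x, R-y or R-z, which depart from the alternating order. Their median SD was 0.230, against 0.163 for the 14 pairs of nearly equal level. The range of ratios is a description of 15 groups in 3 mice.

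The population in which a pair departed farthest from its mean ratio was Ccr2lo macrophages in 6 pairs, Ccr2hi macrophages in 5, neutrophils in 4 and M2 macrophages in 3. Monocytes and B cells were farthest in 2 pairs each and M1 macrophages in 1. T cells were farthest in 0 of 23 pairs. They were the population in which other pairs of candidates parted most, and the rule left out pairs that parted widely there. The 0 is therefore shaped by the choice and is not read as a trait of the members.

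A further comparison, added after the values were seen, kept 1 population at a time out of the choice. Candidates and pairs were drawn from the other 7 populations alone, and the ratio in the one left out was compared with its mean over the 7. The 8 choices gave 221 chosen pairs in all, 22 to 39 per population, many of them the same pair several times. In 179 of 221 (81.0%) the ratio in the population left out lay within 0.6 (log2) of that mean. Among pairs not chosen it was 7324 of 38842 (18.9%). These combinations share barcodes and mice, so the shares are a description. In groups A and C, monocytes, neutrophils and M1 macrophages had like shares. Leaving out 1 of such populations kept the others in the choice, so the ratio left out was not independent of it. The pooled share mixes these populations with B and T cells, which are given apart below. With the 157 candidates present in all 8 populations, for which the population left out had a part in the presence rule, they were 177 of 211 (83.9%) and 7032 of 33517 (21.0%).

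Blood lymphocytes separated pairs that looked alike elsewhere. T cells mature in the thymus from progenitors that leave the marrow, and B cells are made in the marrow. With T cells left out 39 pairs were chosen, and 21 of them (53.8%) held in T cells. With B cells left out it was 24 of 35 (68.6%). With each of the other 6 populations left out 79.3% to 100% held. Among pairs not chosen, 10.0% held in T cells and 16.7% in B cells. In the other 6 populations it was 12.4% (M1 macrophages) to 35.9% (M2 macrophages). T cells were thus also where pairs not chosen held least, so the shares of chosen pairs are not directly comparable between populations. Among candidates present in all 8 populations the widest departure was in mouse 3, where the barcodes at ranks 4 and 13 had a ratio of 3.05 over 7 populations (SD 0.220) but held 5.79% and 0.0699% of T cell reads, a ratio of 82.9. P-x and the same rank 13 barcode had a ratio of 4.07 over 7 populations and 35.3 in T cells. In mouse 2, J-x and the barcode at rank 10 had a ratio of 0.853 over 7 populations and 6.93 in B cells. In mouse 1, A-y and the barcode at rank 16 had a ratio of 4.46 over 7 populations and 28.6 in T cells. Over the 4 blood populations alone, 57 of the 4216 pairs had an SD under 0.3, and 22 of these (38.6%) were also under 0.3 over the 4 macrophage populations. Of pairs not chosen in blood, 134 of 4159 (3.22%) were. Chosen in the 4 macrophage populations, 22 of 156 pairs (14.1%) were under 0.3 in blood, against 35 of 4060 (0.862%). This check over 4 populations was added after the values were seen.

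Levels in the other mice gave a further measure that the rule did not use. Each of the 35 members had reads in all 16 samples of the other 2 mice, mostly at a trace. In 326 of 368 combinations of a pair and a foreign sample (88.6%) the ratio lay within 1.5-fold of its mean in the mouse of origin. Over the other pairs of candidates it did in 22037 of 67088 combinations (32.8%). A member's mean share at home was 51.8 to 649 times its median in another mouse. A trace in proportion to the level at home keeps the ratio of any 2 barcodes with like profiles, and its part in this share was not tested. Q-x and Q-y stood out in T cells of mouse 2, at 0.1415% and 0.1413%, against medians of 0.00560% and 0.00591% over the 8 samples of that mouse. In T cells of mouse 3 the same barcodes held 15.3% and 14.8%. Within mouse 2, T cells were also the highest sample for P-x (0.0344%), P-y (0.0110%), P-z (0.00667%), R-x (0.00613%) and R-z (0.00125%). Among the members of mouse 3 only R-y was highest elsewhere, in Ccr2lo macrophages. A higher level in T cells of mouse 2 was thus not particular to Q-x and Q-y. Whether reads or cells passed between samples was not tested.

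4 members were raised in another mouse above their partner, which stayed at a trace. In 19 of the 368 combinations, from 6 pairs, the ratio was over 4-fold from its own mean with the higher barcode at 0.01% or more, limits set after the values were seen. They trace to D-x, J-y, L-x and R-y, in 13 combinations of barcode and sample, of which 5 were in M2, 4 in Ccr2hi and 3 in Ccr2lo macrophages and 1 in B cells. In mouse 2, D-x held 0.0228% of Ccr2hi, 0.0325% of Ccr2lo and 0.0538% of M2 reads, where D-y held 0.00236%, 0.00330% and 0.00171%. In mouse 1, L-x held 0.0477% of Ccr2hi, 0.0645% of Ccr2lo and 0.0189% of M2 reads, where L-y held 0.00128%, 0.00211% and 0.00129%. In mouse 3, J-y held 0.0335% of Ccr2hi and 0.0666% of M2 reads, against 0.00399% and 0.00586% of J-x. In mouse 2, R-y held 0.0292% of B cell and 0.0319% of Ccr2lo reads, against 0.000810% and 0.000661% of R-z. Such departures were seen in some samples and not in others. L-x and L-y stayed within 1.39-fold of their own ratio in all 4 macrophage samples of mouse 3, and D-x and D-y had a ratio of 1.23 in Ccr2hi macrophages of mouse 3. M1 macrophages, monocytes, neutrophils and T cells gave 0 such combinations.

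Joining each group into 1 unit lowered the count of candidates by 11.9% in mouse 1, from 67 to 59, by 14.0% in mouse 2, from 50 to 43, and by 12.5% in mouse 3, from 40 to 35. The mean fell from 52.3 ± 13.7 barcodes to 45.7 ± 12.2 units (SD, n = 3 mice), a change smaller than the spread between mice and a fall of 12.8% ± 1.07. The size of the fall depends on the limits. It was 7.46% to 10% by mouse with the SD limit at 0.2 and 20% to 23.9% at 0.4. With presence set at 0.001% it was 6.84% to 10.3%, and at 0.05% it was 20.8% to 25%. If a group is allowed only where every pair in it is under the limit, the counts are 59, 44 and 36, since K-w and P-x then stand alone. The rule looks only at barcodes found in all 8 populations, 157 of the 1064 that reached 0.1% in at least 1 population, counted per mouse. Barcodes missing from a population were not examined for partners.

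The members held more of the monocyte, neutrophil and M1 reads than of Ccr2lo reads, as the candidates as a whole did. Their part of these myeloid reads was largest in mouse 1. In that mouse monocytes had 45.0% of their reads in members, neutrophils 46.0% and M1 macrophages 44.1%, but 19.8%, 19.97% and 16.7% in mouse 2 and 21.7%, 21.8% and 21.5% in mouse 3. In cardiac Ccr2lo macrophages they held 11.0%, 6.81% and 6.19%. All candidates together held 88.4%, 92.6% and 92.3% of monocyte reads in mice 1 to 3, but 22.4%, 38.1% and 24.1% of Ccr2lo reads. The higher level in monocytes was thus not particular to the members. In T cells they held 14.5% in mouse 1, 17.1% in mouse 2 and 34.2% in mouse 3, where group Q alone held 30.1%.

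Diversity fell with joining, and more in blood and M1 macrophages than in the other macrophages. The effective number of barcodes is the exponential of the Shannon entropy, which weights each barcode by its share. Summing shares can only lower it, so a fall was certain and only its size is described. In monocytes it went from 42.4, 30.9 and 23.0 in mice 1 to 3 to 31.2, 24.8 and 19.0 after joining, a fall of 21.2% ± 4.66 (SD, n = 3). The falls were 21.1% ± 5.38 in neutrophils, 20.1% ± 5.28 in M1 macrophages, 16.2% ± 4.66 in B cells and 15.3% ± 6.10 in T cells (SD, n = 3 each). M2 macrophages had a fall of 7.49% ± 1.77, and the cardiac populations had 7.85% ± 0.893 (Ccr2hi) and 6.22% ± 1.11 (Ccr2lo), each as SD with n = 3. In each mouse, every fall in blood and in M1 macrophages was larger than each of those 3, and T cells of mouse 1, at 9.42% against 9.36% in M2 macrophages, came closest. The joining was fixed by the same shares, so no test was made. Only candidates could be joined, and their part of the reads differed between populations. Its mean over the 3 mice was 91.1% for monocytes, 92.5% for neutrophils and 92.9% for M1 macrophages. It was lower for B cells (60.5%) and T cells (72.5%). The lowest means were those of Ccr2hi (35.9%), Ccr2lo (28.2%) and M2 macrophages (33.9%). How far the unequal falls follow from this part was not tested. The 10 largest units held 75.6% ± 6.37 of monocyte reads, against 67.8% ± 6.82 for the 10 largest barcodes (SD, n = 3 each).

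Joining changed which unit led a population. It can only raise the share of a group, so the number of samples led by members could not fall. In 5 of the 24 samples the most abundant barcode was a member, and after joining a group led in 13 of 24, which were 7 of 8 in mouse 1, 1 of 8 in mouse 2 and 5 of 8 in mouse 3. In mouse 1 group A led monocytes with 17.1%, neutrophils with 20.1%, B cells with 9.08% and M1 macrophages with 18.4%, where single barcodes outside any group had led before. Group C led both cardiac populations, with 4.30% of Ccr2hi and 3.52% of Ccr2lo reads, and M2 macrophages with 4.90%. In mouse 2 group J led B cells with 15.5%. In mouse 3 group P led B cells, Ccr2hi and M2 macrophages with 11.8%, 4.67% and 4.06%, and group Q led T cells and Ccr2lo macrophages with 30.1% and 2.73%. The lead of P in M2 macrophages was slight, 4.063% against 4.062% for a single barcode. Group P is joined only through P-z, and P-x alone held 8.25% of B cell reads, below a single barcode at 9.85%. Single barcodes still led monocytes, neutrophils and M1 macrophages of mice 2 and 3.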

How the data were processed

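The deposited files hold 1 sample each, with a raw read count for every distinct barcode, per the file headers. The trimming, filtering and counting steps upstream are not given in the sources used here. Counts were divided by the total of the sample to give shares. Within each mouse, as numbered in the sample titles, candidate pairs were compared by the SD of the log2 ratio of their shares, which does not change with the scaling of a sample. Groups are all barcodes linked by chains of pairs under the limit (Python 3.11.15, numpy 2.4.6, pandas 2.3.3, networkx 3.6.1). Sequence distance is the number of differing bases at the same position. The procedure was tested on simulated data with planted pairs. Sequences printed follow a rule on size, abundance, SD and distance stated in the report. The members, the limits and this rule were chosen with earlier results of these data known. No significance test was made, because the members were chosen by the values compared.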

Additional observations from a re-analysis of the deposited data

How the results depend on the processing

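The level ratio and the sequence distance, each a mean over mice of the median per mouse, moved by less than the spread between mice in all 23 alternatives. That spread was wide for the level ratio, an SD of 0.908 around 1.68, so only a large shift would have counted. The level ratio ran from 1.16 to 2.21 over the alternatives. For the distance the SD was 2.93 around 24.7 bases. Leaving out 1 mouse gave means per mouse of 7 to 8.5 pairs, 9.5 to 13.5 members, 39 to 51 units after joining, an effective number after joining over that before of 0.848 to 0.864, a ratio of 1.16 to 1.95 and a distance of 23 to 25.8 bases. With the limit at 0.2 there were 4.67 pairs and 7.67 members per mouse and the effective ratio was 0.895, and at 0.4 they were 13.7, 20.3 and 0.816. Of the 23 pairs 14 remained at 0.2, and 18 others joined at 0.4. Without B cells there were 11.7 pairs and a ratio of 0.790, and without T cells 13 pairs, 18 members and 0.751. Units after joining were 84.3 per mouse with presence at 0.001% and 17 at 0.05%. The effective ratio was 0.856 as reported, 0.884 with the alternating pattern only and 0.877 with complete linkage. With presence and SD taken over the 4 blood populations alone there were 27 pairs, 35 members and a ratio of 0.737, and over the 4 macrophage populations 126 pairs, 71.3 members, 28.7 units and 0.346, both added after the values were seen. Thinning every sample to 6808221 reads kept 22 of the 23 pairs. No paired analysis was possible because the members and the joining were fixed by the same shares. The 8 populations of a mouse are paired by design, but a test on these values would be void. Pairs, counts and falls in diversity are given within each mouse.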

Other observations

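3 candidate sequences were candidates in all 3 mice, and 0 of them was a member in any. Their mean shares were 0.0887% to 0.151% in each mouse, near the lower end of the candidates. They lay in the lowest bin of each mouse, where 7 of 51 candidates were members (13.7%). With so low a share, 0 of 3 says little about these sequences. Their lowest SD to another candidate was 0.347.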
